A study of Mus musculus with 8 samples.

Results

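Sox, Fox and Tbx genes encode 3 families of DNA-binding transcription factors, named for the HMG box, the forkhead domain and the T-box with which they bind. Members were taken as every row of the deposited normalized count table whose gene symbol begins with Sox, Fox and a letter, or Tbx, followed by a digit. That gave 49 of 19460 genes: 27 Fox, 13 Sox and 9 Tbx genes. Of these, 47 are annotated as protein coding, and the other 2 are the noncoding genes Foxd2os and Tbx3os1. Only genes that reached a normalized count of 10 in 4 or more of the 8 libraries were tested, which 33 members did and 16 did not.

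Bone marrow stromal cells are the adherent cells of marrow cultures and include precursors of osteoblasts. Cells of 4 wild-type and 4 Lgr6-null libraries, on a C57BL/6 background, were kept for 10 days in osteogenic medium, which contained 10% serum, β-glycerophosphate at 4 mM and ascorbic acid at 50 µg/mL. Lgr6-null mice were homozygous for Lgr6-GFP-ires-CreERT2, an allele that places a fluorescent reporter and an inducible recombinase at Lgr6, the gene of an R-spondin receptor; age and sex of the mice and the number of animals behind the libraries are not stated in the labels. Libraries are named by the numbers of their columns, M0 to M3 for wild-type and, for Lgr6-null, M0 and M2 to M4, which cannot be tied to the replicate numbers in the sample titles.

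Recovered depth ran from 7629968 reads in genes in Lgr6-null M4 to 21135173 in Lgr6-null M3. Lgr6 itself lay between 61.1 and 103 normalized counts in the Lgr6-null libraries and between 996 and 1667 in wild-type, a log2 fold change of -4.06 (SE 0.20). All 8 osteoblast markers tested were lower in Lgr6-null, and 9 of 12 macrophage markers were higher and 0 lower. Of all 14294 tested genes 13.0% were higher and 12.7% lower at a limma adjusted p under 0.05. Summed over the 12 macrophage markers, wild-type libraries held 255351 to 302929 normalized counts and Lgr6-null libraries 392583 to 594558. Of 14 tested pan-mesenchymal genes 4 were higher and 1 lower in Lgr6-null, with a median log2 fold change of 0.20. Scaling to these genes therefore lowers the log2 fold changes of genes in general. The count of higher macrophage markers was 2 after scaling to pan-mesenchymal genes, where 498 of all tested genes were higher. It was 5 when wild-type M1, wild-type M3 or Lgr6-null M0 was left out. Since no label says that the libraries came from separate animals or cultures, the p-values reflect only how far these libraries scattered, which may be technical. In bulk RNA a smaller number of cells of one type and less RNA per cell cannot be told apart, and the part of the macrophage difference in the results below was not tested.

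In the skeleton, Sox9 starts the cartilage program and Sox5 and Sox6 work with it as the SOX trio, while SoxC proteins act in skeletal progenitors and SoxF proteins in vessels. FoxO factors respond to insulin signaling and oxidative stress and Foxo1 acts in osteoblasts, and Foxc1 and Foxc2 act in skeletal mesenchyme. T-box genes pattern the limb and the girdles, Tbx2 and Tbx3 mostly as repressors and Tbx15 and Tbx18 in mesenchyme.

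Promoter sequences are shown for members whose results are described below. RefSeq windows of 300 bases, from 250 before to 50 after an annotated start on build GRCm38.p6, were matched by symbol to 29 of the 49 members, with 37 windows in all. Foxo1, which was lower in Lgr6-null, is shown beside its relative Foxo3, which was not called, and Tbx18, which was lower; capitals mark CG pairs.
Foxo1, chr3:52268087-52268386, plus strand: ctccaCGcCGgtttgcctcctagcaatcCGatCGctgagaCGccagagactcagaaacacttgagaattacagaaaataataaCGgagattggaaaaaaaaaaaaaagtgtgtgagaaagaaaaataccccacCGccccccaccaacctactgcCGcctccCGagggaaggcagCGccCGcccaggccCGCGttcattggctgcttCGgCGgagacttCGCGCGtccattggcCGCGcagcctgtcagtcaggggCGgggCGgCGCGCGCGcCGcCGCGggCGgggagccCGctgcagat
Foxo3, chr10:42276646-42276945, minus strand: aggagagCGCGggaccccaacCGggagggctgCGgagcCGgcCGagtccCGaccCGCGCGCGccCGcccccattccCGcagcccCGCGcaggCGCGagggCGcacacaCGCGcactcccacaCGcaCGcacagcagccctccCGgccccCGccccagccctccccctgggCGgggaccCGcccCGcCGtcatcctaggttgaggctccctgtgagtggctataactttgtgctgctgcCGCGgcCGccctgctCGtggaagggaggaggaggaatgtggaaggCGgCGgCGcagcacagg
Tbx18, chr9:87731211-87731510, minus strand: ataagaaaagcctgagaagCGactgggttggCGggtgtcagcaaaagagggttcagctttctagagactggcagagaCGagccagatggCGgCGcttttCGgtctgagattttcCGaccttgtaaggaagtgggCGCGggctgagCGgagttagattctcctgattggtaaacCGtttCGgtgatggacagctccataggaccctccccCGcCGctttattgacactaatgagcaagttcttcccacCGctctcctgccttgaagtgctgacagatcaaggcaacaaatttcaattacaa
The Foxo1 window held 31 CG pairs, the Foxo3 window 35 and the Tbx18 window 15, where the median of all 32851 windows was 7. None of these 3 windows held any of 6 short motifs searched on both strands, namely TGTGGT (RUNX), CTTTGA (TCF/LEF), GGCGCC (the BMP-Smad element), GTAAACA (forkhead), AACAAT (SOX) and GGTGTGA (T-box). In that order the motifs were found in 16.8%, 16.0%, 11.9%, 3.65%, 10.7% and 3.98% of all windows.

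Sox6 has 6 annotated windows, and the gene counts do not tell which start was used. The window with the most kinds of motif is shown, with the matches in capitals: a TCF/LEF match on the opposite strand at bases 44 to 49, and a RUNX match at bases 188 to 193 that overlaps a T-box match at bases 191 to 197, counted from the 5′ end.
Sox6, chr7:115846091-115846390, minus strand: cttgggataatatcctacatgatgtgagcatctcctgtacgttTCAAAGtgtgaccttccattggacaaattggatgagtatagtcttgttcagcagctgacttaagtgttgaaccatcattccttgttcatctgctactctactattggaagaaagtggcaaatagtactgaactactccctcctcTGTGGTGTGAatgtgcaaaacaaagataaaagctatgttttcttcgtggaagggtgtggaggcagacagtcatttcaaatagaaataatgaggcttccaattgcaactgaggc
A match describes letters in the window and does not show that a factor binds there.

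The members fell into a group of abundant genes, most of them forkhead genes, and a long tail near the limit of detection. As mean normalized count per kb of annotated exon over both genotypes, Foxs1, a forkhead gene of perivascular cells, stood highest at 361. Foxo3 (297), Foxk2 (236), Sox4 (233), Tbx15 (232) and Foxk1 (177) followed on the same per-length scale. Foxk1 and Foxk2 encode regulators of metabolism and autophagy, and Sox4 is the main SoxC gene here. Foxk2, Sox4 and Tbx15 differed in mean level by less than the spread between libraries of each gene. Within the Sox family Sox9 (48.2), Sox12 (36.0) and Sox13 (18.2) came after Sox4, and Sox5 (0.868) and Sox6 (0.806) were among the lowest tested. Among Tbx genes Tbx15 was followed by Tbx18 (78.2), Tbx2 (17.4) and Tbx3 (13.8).

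**Figure D1:**
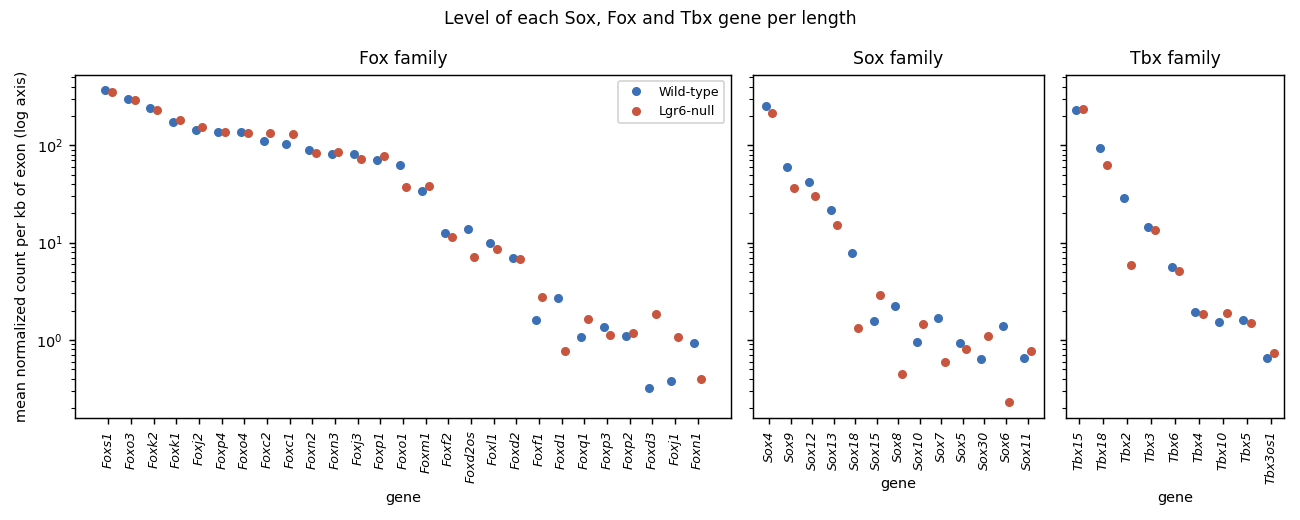
Mean normalized count per kb of exon (log axis) of each Fox, Sox and Tbx gene in wild-type (blue) and Lgr6-null (red) libraries, ordered by level within each family. Abundant Fox genes lie close together in both genotypes, while Tbx2, Sox18 and Sox6 show red points well below blue.

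Between genotypes, 6 of the 33 tested members were lower in Lgr6-null and 0 higher at a limma adjusted p under 0.05, where 12.7% of all 14294 tested genes were lower, 13.0% higher and 25.7% called in either direction. The 6 were Sox6, Sox18, Foxo1, Tbx2, Tbx18 and Foxd2os, 18.2% of the tested members, and in each of them every Lgr6-null library lay below every wild-type library, as in 14.7% of all tested genes. No member was higher at an unadjusted p under 0.05 either, nor with edgeR or DESeq2 (0 members each), while 10 were lower at that unadjusted threshold. The share of all tested genes at the unadjusted threshold was not counted, so these 10 have no background to be read against. Sox6 and Sox18 met the detection limit through the wild-type libraries alone and so had to differ. Of 23 members with a mean of at least 50, 3 were lower, where 13.6% of all genes tested at that limit were. The median log2 fold change was -0.12 over the tested members and 0.00 over all tested genes. Scaling libraries to pan-mesenchymal genes, whose own median was 0.20 before scaling, moved the median of all genes to -0.33. It gave 14 lower members, where 28.7% of all tested genes were lower.

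**Figure D2:**
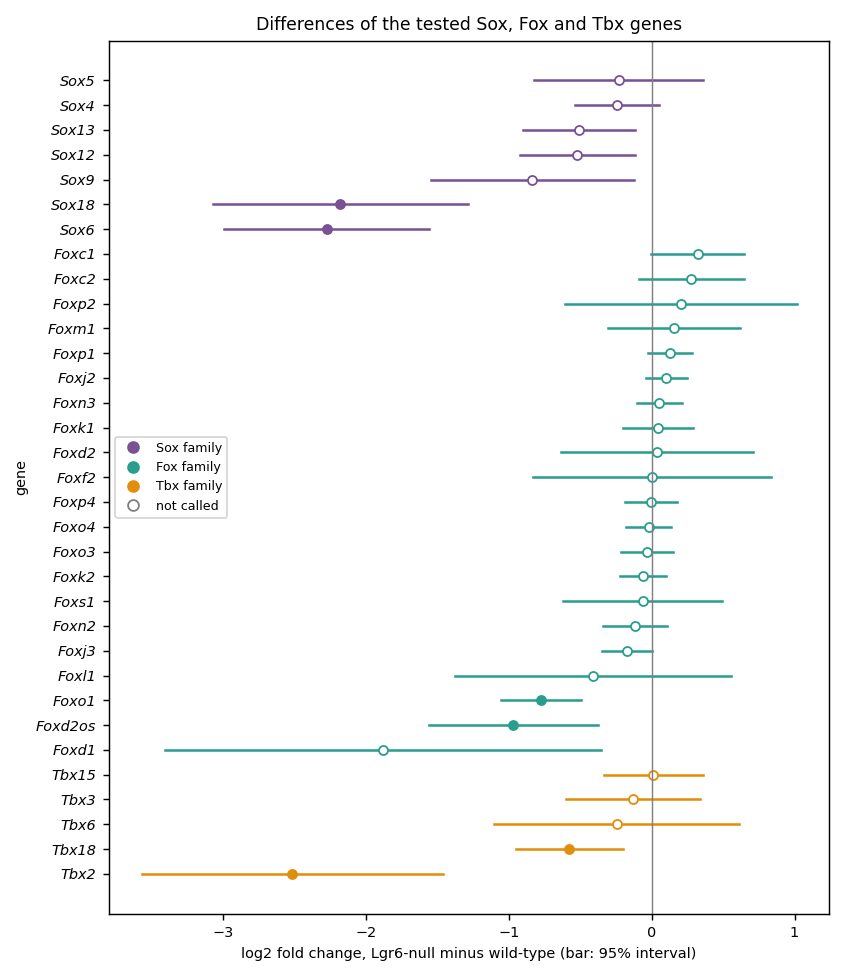
Log2 fold change of each of the 33 tested genes, Lgr6-null minus wild-type, with its 95% interval; filled points passed an adjusted p under 0.05. All 7 Sox genes lie left of 0, most Fox genes lie near 0, and the 6 filled points are all negative.

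Among SoxD genes, Sox6 fell and its partner Sox5 did not pass the test. Sox6 (ENSMUSG00000051910, chromosome 7) stood at 18.6, 28.4, 14.8 and 20.3 normalized counts in wild-type M0 to M3, and at 4.18, 3.35, 2.23 and 3.82 in Lgr6-null M0, M2, M3 and M4. The lowest wild-type library was thus well above the highest Lgr6-null library, on 83 wild-type and 14 Lgr6-null reads. Sox6 met the limit for testing through the wild-type libraries alone, so this absence of overlap and its direction were fixed by the filter. Its log2 fold change was -2.28 with an SE of 0.32 (limma adjusted p = 0.000902). The call was kept in all 19 other settings that tested it (log2 fold change -2.63 to -1.58, adjusted p from 1.82e-05 to 0.0292). These p-values and calls, and the ratio to Sox5 below, rest on values that the filter had set apart. They therefore give no separate support. Sox5, on 55 and 51 reads, averaged 13.4 ± 1.17 in wild-type libraries and 11.5 ± 2.94 in Lgr6-null ones (SD, n = 4; difference -0.23, 95% interval from -0.82 to 0.36). The ratio of Sox6 to Sox5 per kb, which no scaling of libraries enters, was 1.03 to 2.24 in wild-type and 0.138 to 0.388 in Lgr6-null, without overlap; this and the ratios given for other pairs are descriptions, since the pairs were chosen with results known. Sox13, the third SoxD gene, was at 92.2 ± 9.88 and 65.2 ± 13.1, at -0.51 without a call (limma adjusted p = 0.0587). It was called in 2 of 20 other settings, without Lgr6-null M2 (-0.62, limma adjusted p = 0.0338) and with pan-mesenchymal scaling. Over the 20 settings its log2 fold change ran from -0.84 to -0.38 and its adjusted p from 0.00834 to 0.227.

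Sox9, the master regulator of cartilage, was not called. It stood at 339, 202, 253 and 206 normalized counts in wild-type M0 to M3, and at 76.8, 208, 107 and 202 in Lgr6-null M0, M2, M3 and M4. Lgr6-null M0 and M3 were low, and M2 and M4 lay within the range of wild-type. The log2 fold change was -0.84 with an SE of 0.32 (limma adjusted p = 0.0822). It was called in 3 of 20 other settings. These were without Lgr6-null M2 (-1.04, limma adjusted p = 0.0412), without Lgr6-null M4 (-1.02, limma adjusted p = 0.0446) and with scaling to pan-mesenchymal genes (-1.17, limma adjusted p = 0.00162). Over the 20 settings the log2 fold change of Sox9 ran from -1.17 to -0.56 and its adjusted p from 0.00162 to 0.186. The related SoxE gene Sox8, below the limit for testing, had 28 wild-type and 7 Lgr6-null reads, and Sox10, a neural crest gene, had 11 and 14.

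No SoxC gene was called. Sox4 averaged 1203 ± 99.5 in wild-type libraries and 1027 ± 195 in Lgr6-null ones (SD, n = 4), at -0.25 (limma adjusted p = 0.206; 95% interval from -0.54 to 0.05), and was called only with pan-mesenchymal scaling (-0.58, limma adjusted p = 0.0121). Sox12 was at 187 ± 18.3 and 133 ± 34.8, at -0.52 (limma adjusted p = 0.0613). It was called in 3 of 20 other settings: without Lgr6-null M2 (-0.66, limma adjusted p = 0.0216), with DESeq2 (-0.50, adjusted p = 0.0458) and with pan-mesenchymal scaling. Over the 20 settings its log2 fold change ran from -0.85 to -0.38 and its adjusted p from 0.00311 to 0.149. Sox11, the third SoxC gene, had 23 and 22 reads. All 7 tested Sox genes had a negative log2 fold change, where 49.8% of all tested genes did, and 2 of the 7 were called. All 7 were also negative with libraries scaled to 1 total, where 36.4% of all tested genes were, and with quantile normalization, where 46.6% were. With pan-mesenchymal scaling 6 were called, but 83.5% of all tested genes were negative there and 28.7% were called lower. Without Lgr6-null M2 5 of the 7 were called. Sox6 and Sox18, the 2 called over all libraries, met the limit for testing through wild-type alone. Their sign was thus fixed by the filter. With a mean normalized count of at least 50 required, 4 Sox genes were tested, all 4 negative and 0 called. At that limit 48.3% of all tested genes were negative and 13.6% were called lower.

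The SoxF gene Sox18, a regulator of vessels and lymphatics, fell. Wild-type M0 to M3 held 11.1, 11.4, 16.5 and 11.4 normalized counts, and Lgr6-null M0, M2, M3 and M4 held 2.51, 0.837, 1.49 and 3.82. The genotypes did not overlap, on 52 and 8 reads. Sox18 met the limit for testing through the wild-type libraries alone, so this absence of overlap and its direction were fixed by the filter. The log2 fold change was -2.18 with an SE of 0.40 (limma adjusted p = 0.00370), called in all 19 other settings that tested it. This p-value and these calls rest on values that the filter had set apart, so they give no separate support. Sox7, another SoxF gene, had 23 wild-type and 7 Lgr6-null reads and was not tested. Endothelial markers were scarce, with a summed level of 164 to 227 in wild-type and 128 to 200 in Lgr6-null. Of 7 tested, 1 rose and 2 fell, where 13.0% and 12.7% of all tested genes did. Only 1 fell without wild-type M0, M1 or M3 or without Lgr6-null M0, M2 or M3. Those lower were the vascular growth factor receptor Kdr (-1.30) and the transcription factor Erg (-1.75), and the receptor Tie1, which met the limit for testing through Lgr6-null alone and so had to differ, was higher (2.42); Cdh5 (-0.63) and Pecam1 (-0.41) were not called.

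**Figure D3:**
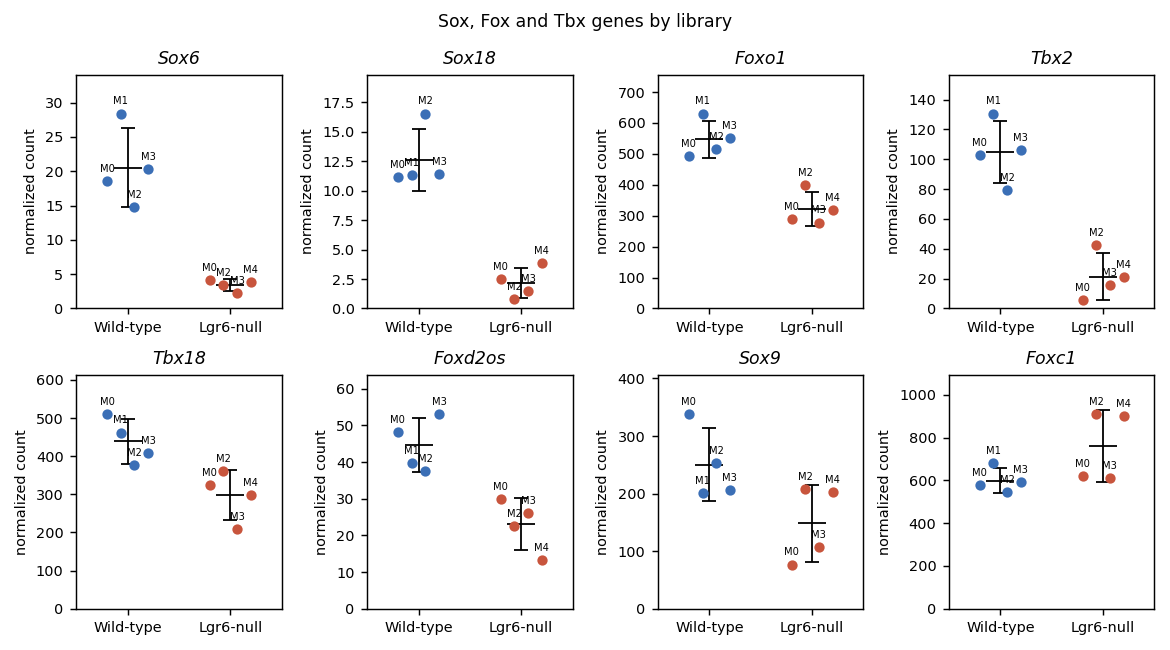
Normalized counts of 8 genes in each library (points, labelled by column number) with mean and SD (bars) for wild-type (blue) and Lgr6-null (red), axes from 0. Sox6, Sox18, Foxo1, Tbx2, Tbx18 and Foxd2os show no overlap between genotypes, while Sox9 and Foxc1 do. For Sox6 and Sox18 this was fixed by the filter for testing.

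Among the FoxO genes, Foxo1 fell while Foxo3 and Foxo4 were not called. Foxo1 (chromosome 3) stood at 493, 631, 516 and 551 normalized counts in wild-type M0 to M3 and at 289.8, 399, 278 and 319 in Lgr6-null M0, M2, M3 and M4, with a mean 58.7% of that of wild-type. No Lgr6-null library reached the lowest wild-type library. The log2 fold change was -0.77 with an SE of 0.12 (limma adjusted p = 0.00179), and the gene was called in all 20 other settings (-1.11 to -0.68). Foxo3 was at 2268 ± 116 and 2225 ± 237 (SD, n = 4), a difference of -0.03 (95% interval from -0.21 to 0.15), and Foxo4 at 475 ± 24.8 and 468 ± 24.2, a difference of -0.02 (95% interval from -0.18 to 0.14). The ratio of Foxo1 to Foxo3 per kb was 0.180 to 0.237 in wild-type and 0.116 to 0.137 in Lgr6-null, and that of Foxo1 to Foxo4 was 0.426 to 0.496 and 0.226 to 0.367, neither with overlap.

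Of 19 genes known as FoxO targets, 7 were higher and 3 lower in Lgr6-null with a median log2 fold change of 0.23. Of all tested genes 13.0% were higher and 12.7% lower, with a median of 0.00. With scaling to pan-mesenchymal genes 0 targets were higher and 5 lower (median -0.11), where 28.7% of all tested genes were lower (median -0.33). Scaling every library to 1 total gave 11 higher and 2 lower targets. With that scaling 2886 of all 14294 tested genes were higher and 1281 lower. Without wild-type M1, wild-type M2 or Lgr6-null M4, 4 were higher and 1 lower, without wild-type M3 4 were higher and 2 lower, and without Lgr6-null M2 5 were higher and 1 lower. The peroxide-degrading enzyme Cat rose from 4577 ± 463 to 7084 ± 429 (SD, n = 4), a log2 fold change of 0.63 (SE 0.08) at a limma adjusted p = 0.000540, and the stress-response gene Sesn1 was at 0.55 (limma adjusted p = 0.0143). The PI3K inhibitor Pik3ip1 fell from 579 ± 72.9 to 199 ± 58.8, a log2 fold change of -1.58 (SE 0.19) at a limma adjusted p = 0.000393.

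None of the other abundant forkhead genes was called. There were 12 Fox genes with a wild-type mean of at least 400 and no call in limma, and their log2 fold changes ran from -0.17 (Foxj3) to 0.32 (Foxc1). With pan-mesenchymal scaling Foxj3, Foxk2 and Foxn2 were called lower, as were 28.7% of all tested genes. Foxk1 was at 1314 ± 97.0 and 1365 ± 206 (difference 0.04, 95% interval from -0.20 to 0.29), Foxk2 at -0.06 (from -0.22 to 0.10), Foxp1 at 0.13 (from -0.03 to 0.28) and Foxp4 at -0.00 (from -0.19 to 0.18). Foxs1 ranged widely within each genotype, from 372 to 692 in wild-type and from 291 to 596 in Lgr6-null. Foxm1, which drives genes of mitosis, was at 196 ± 48.4 and 218 ± 50.0, and of 18 of its target genes 0 were called with limma, edgeR or DESeq2, and 1 was higher and 0 lower at an unadjusted p under 0.05. That gene was Cenpa, which encodes the centromere histone (log2 fold change 0.57, limma adjusted p = 0.110). Without wild-type M3 1 target was called higher, and without Lgr6-null M3 1 was called lower. The remaining tested forkhead genes were Foxf2, Foxl1 and Foxp2 at low levels and Foxj2, Foxj3, Foxn2 and Foxn3 at higher ones. Foxl1, a gene of mesenchyme beside epithelia, spread from 7.64 in Lgr6-null M4 to 40.9 in Lgr6-null M0, around wild-type values of 23.2 to 29.6 (log2 fold change -0.41 with limma, 95% interval from -1.38 to 0.55, -0.12 with edgeR and -0.15 with DESeq2).

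Foxc1, needed in the skull vault and in the marrow niche, was not called. It stood at 579.7, 679.8, 544 and 591 normalized counts in wild-type M0 to M3 and at 622, 911, 611 and 899 in Lgr6-null M0, M2, M3 and M4. M2 and M4 lay above all wild-type libraries and M0 and M3 within their range; M2 and M4 were also the higher Lgr6-null libraries for Sox9. Its log2 fold change was 0.32 (limma adjusted p = 0.136; 95% interval from -0.00 to 0.65) and turned to -0.01 with pan-mesenchymal scaling. Foxc2, at 303 ± 62.3 and 365 ± 64.6, was at 0.28 (limma adjusted p = 0.254). Foxf2 and Foxq1 lie within 1 Mb of Foxc1 on chromosome 13, and Foxf1 and Foxl1 beside Foxc2 on chromosome 8, and of these 6 genes the 4 tested were not called, while Foxf1 and Foxq1 were below the limit for testing.

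In the FoxD group, Foxd2os, a noncoding gene beside Foxd2 on the other strand, fell. It stood at 48.2, 39.8, 37.5 and 53.2 normalized counts in wild-type M0 to M3 and at 30.1, 22.6, 26.0 and 13.4 in Lgr6-null M0, M2, M3 and M4. No library crossed over, and the log2 fold change was -0.97 with an SE of 0.26 (limma adjusted p = 0.0239), with the call lost without wild-type M0 (-0.93, limma adjusted p = 0.0577) and without wild-type M3 (-0.88, limma adjusted p = 0.0684). Foxd2 ran from 10.4 to 26.1 in wild-type and from 15.6 to 20.1 in Lgr6-null (difference of mean logs 0.04, 95% interval from -0.63 to 0.71, against -0.05 with edgeR and -0.06 with DESeq2); whether the counting used strand is not stated, but the annotated gene bodies do not overlap. Foxd1, a gene of kidney stroma, was named after its values were seen. It stood at 16.7, 16.1, 18.3 and 3.80 in wild-type M0 to M3 and at 0.835, 1.67, 1.49 and 11.5 in Lgr6-null M0, M2, M3 and M4. Wild-type M3, on 3 reads, and Lgr6-null M4, on 6 reads, crossed the other genotype. Foxd1 had 59 wild-type and 11 Lgr6-null reads in all, with 1 or 2 reads in Lgr6-null M0, M2 and M3. Its Lgr6-null values thus lay near the limit of detection. The log2 fold change was -1.88 (limma adjusted p = 0.0708), and Foxd1 was called without wild-type M3 (-2.36, limma adjusted p = 0.0353), without Lgr6-null M4 (-2.49, limma adjusted p = 0.0117), with edgeR (-2.31, adjusted p = 0.0378), with DESeq2 (-2.12, adjusted p = 0.0405), with pan-mesenchymal scaling (-2.14, limma adjusted p = 0.00990) and in the 6 libraries M0, M2 and M3 of both genotypes (-2.36, limma adjusted p = 0.0378).

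Of the Tbx genes, Tbx2 and Tbx18 fell while Tbx3 and Tbx15 were not called. Tbx2 (chromosome 11), a repressor of cell cycle inhibitor genes, stood at 103, 131, 79.3 and 106 normalized counts in wild-type M0 to M3 and at 5.85, 42.7, 15.6 and 21.0 in Lgr6-null M0, M2, M3 and M4, with a mean 20.3% of that of wild-type. The Lgr6-null libraries spread widely, from M0 at the bottom to M2 at the top, yet all stayed below wild-type. The log2 fold change was -2.52 with an SE of 0.47 (limma adjusted p = 0.00408), and Tbx2 was called in all 20 other settings (-2.94 to -2.05). Tbx3, its nearest relative, ran from 78.5 to 105 in wild-type and from 55.8 to 103 in Lgr6-null (difference -0.13, 95% interval from -0.60 to 0.34). The ratio of Tbx2 to Tbx3 per kb was 1.58 to 2.48 in wild-type and 0.107 to 0.824 in Lgr6-null, so that the order of the pair differed between genotypes. Tbx4, which neighbours Tbx2, had 27 and 24 reads and was not tested.

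Tbx18 stood at 511, 462, 378 and 408 normalized counts in wild-type M0 to M3 and at 326, 362, 209 and 298 in Lgr6-null M0, M2, M3 and M4. The genotypes did not overlap, with wild-type M2 and Lgr6-null M2 closest. Its log2 fold change was -0.58 with an SE of 0.17 (limma adjusted p = 0.0301). The call was lost without wild-type M0 (-0.50, limma adjusted p = 0.0754), M1 (-0.55, limma adjusted p = 0.0792) or M3 (-0.61, limma adjusted p = 0.0536), without Lgr6-null M4 (-0.58, limma adjusted p = 0.0501) and with every library scaled to 1 total (-0.48, limma adjusted p = 0.0722). Tbx15, the most abundant Tbx gene, was at 855 ± 42.6 and 882 ± 220 (difference 0.01, 95% interval from -0.34 to 0.36). The ratio of Tbx18 to Tbx15 per kb was 0.366 to 0.443 in wild-type and 0.206 to 0.318 in Lgr6-null. Tbx15 made up 58.7% to 62.9% of the summed Tbx level per kb in wild-type and 67.7% to 76.8% in Lgr6-null. Tbx6, a gene of the early mesoderm, was the fifth tested Tbx gene, with wild-type libraries at 10.2 ± 1.29 and Lgr6-null libraries at 9.29 ± 5.38 (SD, n = 4; log2 fold change -0.25 with limma, 95% interval from -1.10 to 0.61, -0.05 with edgeR and -0.08 with DESeq2).

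Some members, picked after their values were seen, shared an order of the Lgr6-null libraries. Sox9, Sox12, Foxs1 and Foxc1 were each higher in M2 and M4 than in M0 and M3. That order was found in 18 of the 33 tested members and in 22.4% of all tested genes. It was read from members counted here, so these shares are a description only. The opposite order was found in 4 members, Foxd2os, Foxl1, Foxo4 and Sox5, and in 26.5% of all tested genes. In the same libraries the summed macrophage markers were 501615 in M0, 392583 in M2, 594558 in M3 and 394123 in M4, so M0 and M3 held the highest macrophage signal. Sox13 shared that order (65.1 in M0, 80.4 in M2, 48.3 in M3 and 66.8 in M4), and Tbx2 did as well. M0 and M3 also had the most reads in genes among Lgr6-null libraries, 18504870 and 21135173, against 17419716 in M2 and 7629968 in M4. The summed FoxM1 target genes were highest there too, at 5431 in M0 and 6715 in M3, against 4005 in M2 and 4467 in M4. The part of macrophage signal, depth or cell division in these values was not tested.

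**Figure D4:**
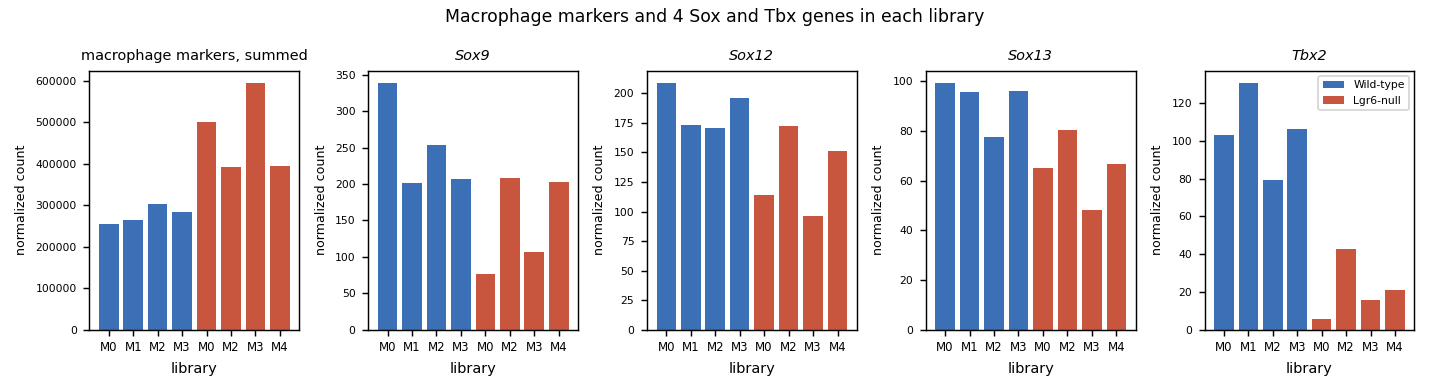
Summed normalized counts of 12 macrophage markers and normalized counts of 4 genes in each wild-type (blue) and Lgr6-null (red) library, bars from 0. Among Lgr6-null libraries M0 and M3 have the highest macrophage bars and the lowest Sox9, Sox12 and Tbx2 bars.

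Of the cartilage genes known as targets of the SOX trio, Acan, Col11a2, Matn4, Col11a1 and Comp fell. Col2a1, Col9a3, Col10a1 and Col27a1 were tested and not called. The list held 20 genes, of which 15 matched the table and 9 were tested. Of the 9, 0 were higher and 5 lower, where 13.0% and 12.7% of all tested genes were. Their median log2 fold change was -1.93. Counts of 0 and 5 were also found with each of the 3 other scalings. Acan met the limit for testing through wild-type alone and so had to differ, which leaves 4 lower among the other 8 tested. The large cartilage proteoglycan Acan stood at 70.5, 67.2, 108 and 72.2 in wild-type M0 to M3 and at 0.835, 1.67, 2.97 and 0 in Lgr6-null M0, M2, M3 and M4, a log2 fold change of -5.23 (SE 0.42) at a limma adjusted p = 3.91e-05. The collagen chain Col11a2 was at -3.78 (SE 0.30) and the matrilin Matn4 at -2.27 (SE 0.32). All 8 osteoblast markers were lower in the same libraries, and their part in these values was not tested. Col2a1, the main collagen of cartilage, averaged 7540 ± 2276 in wild-type libraries and 6988 ± 1207 in Lgr6-null ones (SD, n = 4; difference -0.07, limma adjusted p = 0.828). Matn1, a matrilin that marks cartilage, had 7 wild-type and 29 Lgr6-null reads and was below the limit for testing.

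**Figure D5:**
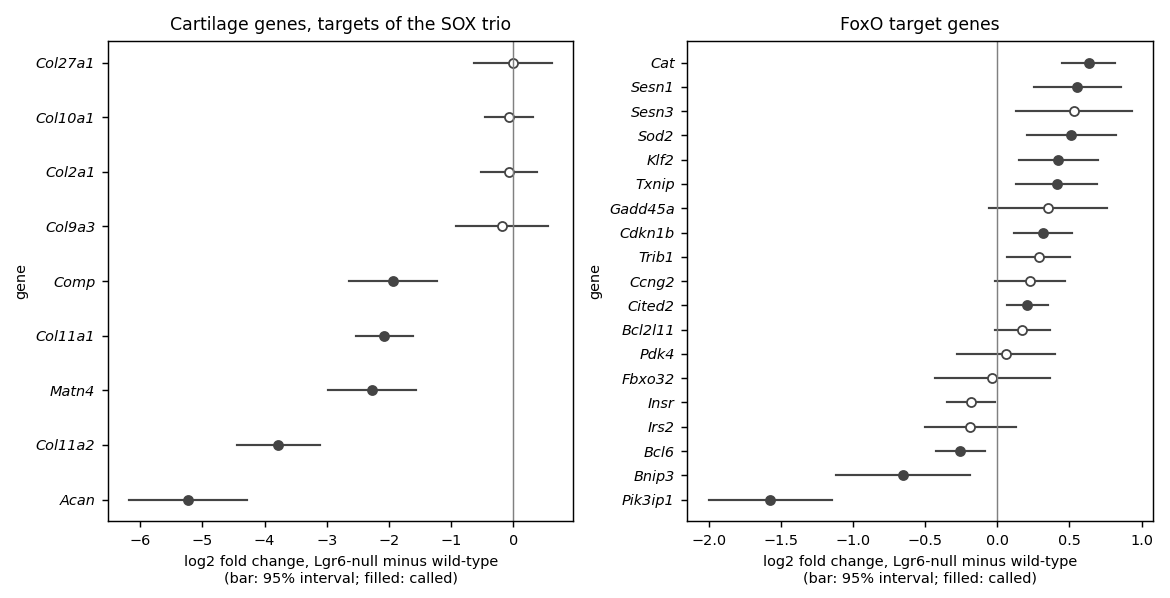
Log2 fold change with 95% interval of tested cartilage genes (left) and FoxO target genes (right), Lgr6-null minus wild-type; filled points passed an adjusted p under 0.05. Acan, Col11a2, Matn4, Col11a1 and Comp lie far left while Col2a1 lies at -0.07, and FoxO targets lie on both sides of 0.

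Groucho and CtBP corepressors, which many of these factors recruit, were called in both directions. Of 7 tested, 2 were higher and 2 lower, where 13.0% and 12.7% of all tested genes were. Without wild-type M1, M2 or M3, or without Lgr6-null M0 or M3, 1 was higher and 2 lower. Tle2 fell from 457 ± 83.6 to 260.1 ± 17.2 (SD, n = 4), a log2 fold change of -0.79 (SE 0.13) at a limma adjusted p = 0.00163, Tle3 was lower (-0.31, limma adjusted p = 0.0154) and Tle1 higher (0.53, limma adjusted p = 0.0154), although with pan-mesenchymal scaling 0 were higher and 2 lower.

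The 16 members below the limit for testing had 12 to 61 reads over the 8 libraries. Foxd3, a neural crest gene, had 3 wild-type and 9 Lgr6-null reads, all 9 of them in M4, and Foxq1, at 19.1 normalized counts in Lgr6-null M4, was at 2.51 to 5.95 in the other Lgr6-null libraries. Foxp3, which marks regulatory T cells, had 24 and 23 reads. Foxf1 had 16 and 29 reads, Tbx5 31 and 30, and Tbx10 11 and 17. Sox30 had 8 and 12 reads. The remaining untested members were Foxj1, a gene of ciliated cells, Foxn1, a thymus gene, Sox15 and Tbx3os1, which overlaps Tbx3 on the other strand.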

How the data were processed

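RNA of 4 wild-type and 4 Lgr6-null libraries was sequenced from polyA-selected, stranded libraries per the labels' protocols, with the build GRCm39 and the tools HTSeq 0.13.5, HISAT2 2.1.1 and DESeq2 listed, without roles, per the submitters' processing notes. The authors deposited a signal table of normalized counts per gene, that is, gene counts divided by a size factor per library. Whole reads were recovered from it (100% of values whole within 0.01 read), with 7629968 to 21135173 reads in genes per library. Columns name a genotype but not a sample, and no column was left unassigned. Symbols came from a GENCODE annotation of GRCm38, which matched 19361 identifiers and not 99.

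Values were tested as log2(normalized count + 1) with limma 3.58.1 in R 4.3.3 after requiring 10 in at least 4 libraries, with Benjamini-Hochberg adjustment over all tested genes; fold changes are differences of mean logs on this scale. The added 1 draws weakly expressed genes toward 0, but for genes with scattered libraries a mean of logs can also exceed the edgeR and DESeq2 values. edgeR 4.0.16 and DESeq2 1.42.0 on recovered reads were alternatives, with other pseudocounts, filters, scalings and each library left out. The fit was tested on 20 simulated data sets, in which far fewer genes were changed than were called here. On average 5.63% of the calls were false (3.125% to 8.75%), where 5% was nominal. Changes of 1.5-fold were called in 48.7% of cases, 2-fold in 81.0% and 4-fold in 97.9%. A first draw had exceeded the limit set for false calls, and that limit was changed after the 20 runs. Named were all called members, Sox6, Sox9 and Foxc1, the 4 most abundant tested members per family, neighbours within 1 Mb, untested members with at least 20 reads and up to 3 called genes per list. Members and lists were chosen with earlier results of these data known.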

Additional observations from a re-analysis of the deposited data

Results flagged for a closer look

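In 66 sets of 4 libraries, 1 member in 1 genotype each, 5 held a library far from the other 3, and chance gives about 1 in 20. Foxd1 was at 3.80 in wild-type M3 and at 16.1 to 18.3 in the other wild-type libraries. Sox13 was at 77.5 in wild-type M2 against 95.6 to 99.2. Sox18 was at 16.5 in wild-type M2 against 11.1 to 11.4. Sox4 was at 1351 in wild-type M1 against 1136 to 1168. Tbx3 was at 55.8 in Lgr6-null M3 against 94.6 to 103.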

How the results depend on the processing

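With limma, 1855 genes were higher and 1821 lower over the whole table. Higher genes numbered 2886 when each library was scaled to 1 total and 498 under pan-mesenchymal scaling, where there were 4107 lower genes and 14 lower members. With a mean of at least 50 required, 3 of the 23 tested members were lower, where 13.6% of all tested genes were. Leaving out 1 library gave 1321 to 1839 higher genes, 1375 to 1769 lower genes, 4 to 9 lower members and 0 to 0 higher members. Members higher numbered 0 in all 20 other settings. For column numbers shared by both genotypes, deviations from the genotype means correlated at r of -0.04 for M0, -0.19 for M2 and 0.05 for M3. Any pair across genotypes lay between -0.19 and 0.17. The labels do not state whether libraries were paired. A replicate block over the 3 shared numbers gave 935 higher and 1008 lower genes and 4 lower members (Foxo1, Sox18, Sox6 and Tbx2), and the same 6 libraries without the block, chosen after seeing the data, gave 1341, 1348 and 5. Tbx18 and Foxd2os were not called in these 6 libraries without the block (limma adjusted p = 0.113 and 0.0516) or with it (limma adjusted p = 0.102 and 0.0821), and Foxd1 was called without it (limma adjusted p = 0.0378) and not with it (limma adjusted p = 0.0677). The cause of these shifts was not tested. The members under the filter had 12 to 61 reads each, and the part of depth in this was not tested.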
